A study of Mus musculus with 12 samples.

Results

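The 9 genes described here handle the transport and storage of iron in mouse cells. They are the transporters Slc11a1, Slc11a2 and Slc39a14, the transferrin receptor Tfrc, the exporter Slc40a1, the ferroxidase Cp, the ferritin subunits Fth1 and Ftl1, and the iron-siderophore binder Lcn2. They were chosen by name, with earlier results of these data known. They are the rows of the deposited count table whose Ensembl identifiers carry these symbols, 9 of the 55416 identifiers in that table. All 9 have a row and all 9 passed the filter on low counts.

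The libraries come from SIM-A9, a mouse microglial cell line of C57BL/6 background per the labels. KO stands for H14, a SIM-A9 line labelled as a knockout of the kinase gene Mok, and WT for the unmodified line. Both lines were grown with serum and received either lipopolysaccharide (LPS, a bacterial cell wall component sensed through Toll-like receptor 4), dosed at 1 µg/mL for 5 h, or medium alone. Each of the 4 groups (KO under LPS, KO in medium, WT under LPS, WT in medium) holds 3 libraries labelled as biological replicates, 12 in all, and how the replicate cultures were separated is not described, so each p-value reflects the spread among these libraries. The KO is a single line, so what follows from losing Mok and what is particular to that line cannot be told apart. In such bulk RNA, fewer cells that express a gene and less RNA per cell cannot be told apart either.

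Cells take up transferrin-bound iron through the transferrin receptor, reduce it in the endosome and pass it to the cytosol through Slc11a2, while Slc39a14 brings in iron that is not bound to transferrin. Iron that is not used is kept in ferritin shells built of heavy and light subunits or leaves through ferroportin, the product of Slc40a1, helped by the oxidase ceruloplasmin. In macrophages and microglia, inflammatory signals shift this traffic, and cells release lipocalin 2, which denies iron to bacteria by binding their siderophores. Much of the control is exerted on the mRNA itself: when iron is scarce, iron regulatory proteins bind hairpins called iron-responsive elements, which block translation when they lie in a 5′ UTR and stabilise the mRNA when they lie in a 3′ UTR.

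These elements are shown because they are a sequence feature that several of the 9 genes share. As they are known from the control of iron, finding them among iron genes is a description and not a test. A search of the GENCODE M21 transcripts on GRCm38 for a hairpin of 27 bases (loop CAGTGN, 5 paired bases in the upper stem, at least 4 of 5 in the lower stem, G-T pairs allowed) found it in the UTRs of 17 of 21901 protein-coding genes, or 0.0776%. Among them were 4 of the 9 genes: Slc40a1, Fth1 and Ftl1 with 1 element each in the 5′ UTR, and Tfrc with 4 elements in the 3′ UTR. No match was made in the other 5 genes, which says only that no hairpin of this form was found there. Hairpins of any other form are missed by the search, so the 4 elements of Tfrc may not be all it has. The elements are written 5′ to 3′ as DNA, with the loop in capitals.
Slc40a1, chr1:45925466-45925492, minus strand: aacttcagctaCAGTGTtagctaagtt
Tfrc element A, chr16:32631220-32631246, plus strand: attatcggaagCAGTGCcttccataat
Tfrc element B, chr16:32631599-32631625, plus strand: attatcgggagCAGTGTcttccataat
Tfrc element C, chr16:32631664-32631690, plus strand: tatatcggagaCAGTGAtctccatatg
Tfrc element D, chr16:32631711-32631737, plus strand: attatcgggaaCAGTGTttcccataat
Fth1, chr19:9982733-9982759, plus strand: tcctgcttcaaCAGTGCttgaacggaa
Ftl1, chr7:45459780-45459806, minus strand: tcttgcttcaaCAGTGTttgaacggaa

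All 5 bases of the lower stem pair in the elements of Slc40a1 and Tfrc, and 4 of 5 pair in those of Fth1 and Ftl1.

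Depth and identity of the libraries were checked first. Totals ranged from 39.7 to 72.9 M counts per library, and 26420 genes were tested. Mok had 78, 84 and 56 counts in KO libraries under LPS and 115, 117 and 95 in KO libraries in medium, against 164, 87 and 158 in WT libraries under LPS and 158, 163 and 206 in WT libraries in medium. Mok was lower in KO than in WT cells under LPS (log2 fold change -0.72, adjusted p = 0.0177) and gave -0.58 (adjusted p = 0.0501) in medium. Which part of Mok was deleted is not stated in the sources used here, so its counts are an incomplete check of the labels. Under LPS that call was lost when KO replicate 3, WT replicate 1 or WT replicate 3 under LPS was left out (adjusted p = 0.0753, 0.0785 and 0.0515). Of 10 microglial markers, 6 averaged at least 1 count per M counts after scaling of the library (CPM) in KO cells under LPS, 9 in KO cells in medium, 8 in WT cells under LPS and 9 in WT cells in medium. P2ry12, a defining marker of microglia, stayed below that level in every group, and so did Tmem119 in both lines under LPS and Cx3cr1 and Aif1 in KO cells under LPS. The list had sums of 944 to 1295 CPM in KO under LPS, 687 to 968 CPM in KO in medium, 1283 to 1466 CPM in WT under LPS and 1006 to 1162 CPM in WT in medium. The markers of fibroblasts (5) and hepatocytes (5) had none at 1 CPM or more. KO replicate 2 under LPS stood apart from the other libraries of its group, with chi-square values per degree of freedom of 174.3 and 96.1 against replicates 1 and 3, which differed from each other by 39.8. WT libraries in medium also differed widely, with 150.9 between replicates 2 and 3, 70.3 between 1 and 2 and 55.4 between 1 and 3. WT replicate 2 in medium held 13% of its counts in processed pseudogenes, against 8.89% and 6.58% in the other libraries of that group. That share was 6.64% to 7.35% in KO cells under LPS, 12.8% to 14.3% in KO cells in medium and 6.28% to 7.05% in WT cells under LPS, and its part in the results below was not tested beyond the fits that are named.

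Under LPS, most of the 9 genes were more abundant than in medium, in both lines. In KO cells 8 of 9 rose, all but Ftl1, where 52% of all genes tested changed and 25.3% rose. In WT cells 7 of 9 rose, all but Ftl1 and Slc40a1, where 32.6% of all genes tested changed and 16.3% rose. None of the 9 fell in either line. The median log2 fold change of the 9 genes was 1.00 in KO cells and 1.13 in WT cells, beside -0.03 and -0.07 over all genes tested. The 9 were chosen with earlier results of these data known, so these counts and medians describe them and are no test of the group. The libraries under LPS lay clear of those in medium for 8 of 9 genes in KO cells, where this held for 61.4% of all genes, and for 7 of 9 genes in WT cells, where it held for 43% of all genes. These comparisons rest on an edgeR quasi-likelihood fit over all genes with Benjamini-Hochberg adjustment, and a gene is said to rise or fall at an adjusted p under 0.05.

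**Figure D1:**
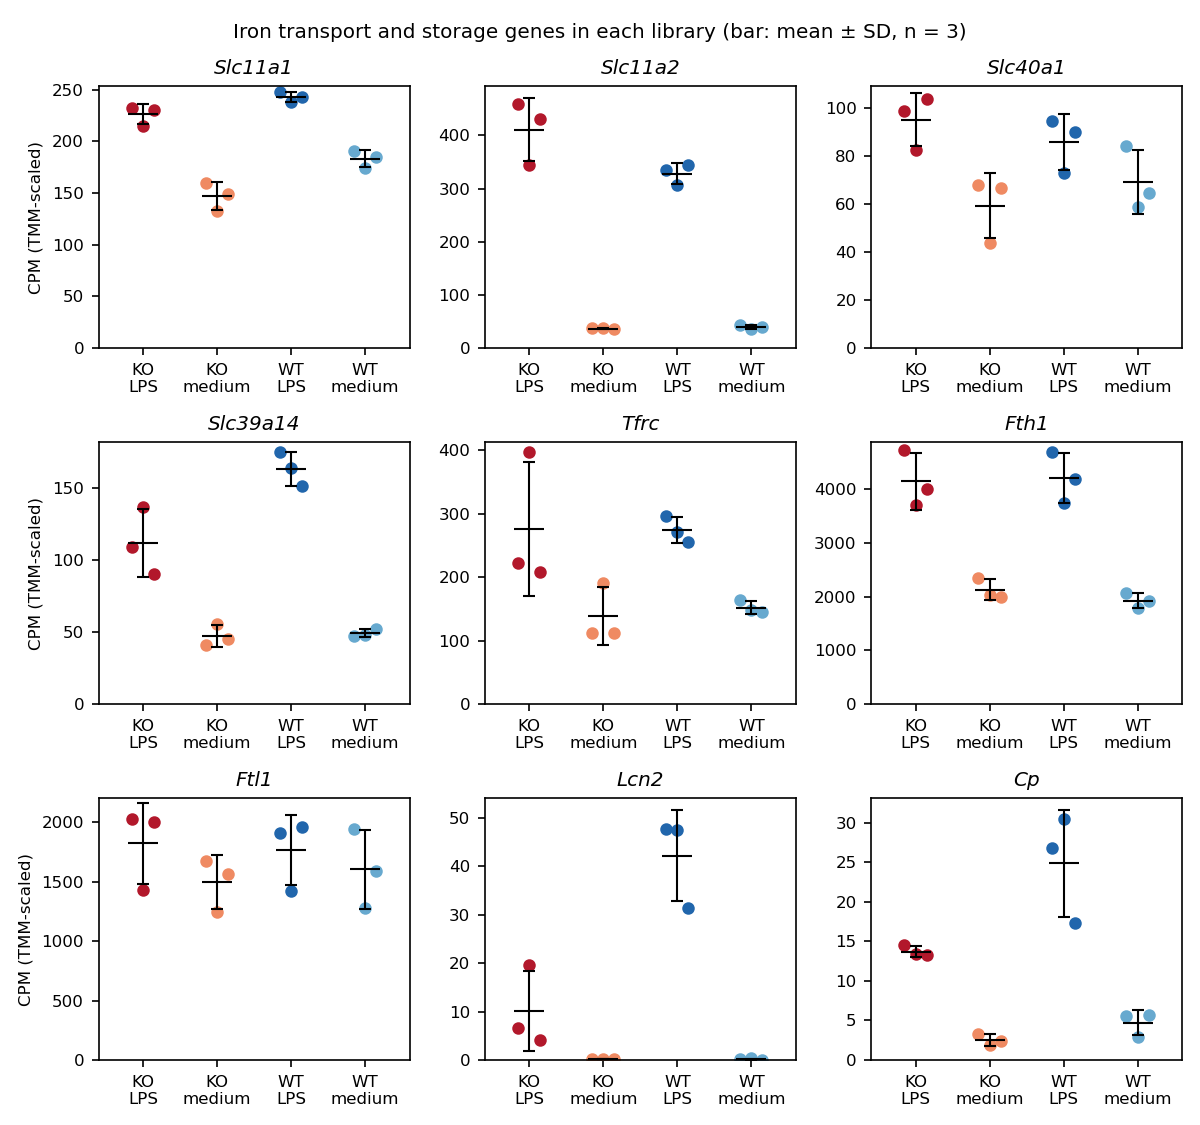
CPM of each of the 9 genes (vertical axis, starting at 0, a scale of its own for each gene) in the 12 libraries; points are libraries, bars the mean and error bars the SD (n = 3 per group). Slc11a2, Lcn2, Cp, Slc39a14 and Fth1 stood higher under LPS in every library of both lines, and Ftl1 overlapped between all groups.

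Levels can be set side by side between genes only per length, as CPM per kb of exon sequence. The length used is that of all annotated exons of a gene together, 3469 bases for Fth1 and 1340 for Ftl1. It can exceed the length of the mRNA present, which lowers the value, so the order of genes below is approximate. As CPM alone, Fth1 was above Ftl1 in every library. The ferritins led in every group: Ftl1 had a mean of 1358 and Fth1 of 1195 CPM per kb in KO cells under LPS, 1115 and 613 in KO cells in medium, 1316 and 1212 in WT cells under LPS, and 1197 and 554 in WT cells in medium. The Ftl1 level is uncertain, since its reads can be assigned to near copies. Far below came Slc11a1 at 39.8 to 65.6 CPM per kb over the 4 group means and Tfrc at 22.4 to 44.7 CPM per kb. Slc11a2 changed its place in this order, with 64.7 CPM per kb in KO cells under LPS and 5.75 in KO cells in medium, against 51.7 in WT cells under LPS and 6.24 in WT cells in medium. Slc40a1 lay between 6.60 and 10.6 CPM per kb and Slc39a14 between 4.49 and 15.5 CPM per kb. Cp was at most 2.60 CPM per kb, and Lcn2 went below it in medium (0.0778 in KO cells and 0.0679 in WT cells) and above it under LPS (3.85 in KO cells and 16.1 in WT cells).

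Slc11a2 encodes DMT1, which carries ferrous iron across the endosomal and plasma membranes, and it had the largest relative response among the genes that carry iron. It had 459.5, 344 and 430.2 CPM in KO libraries under LPS, against 37.2, 37.3 and 35.2 CPM in KO libraries in medium. It had 335, 306 and 344 CPM in WT libraries under LPS, against 43.1, 35.6 and 40.2 CPM in WT libraries in medium. The groups under LPS lay far above those in medium with no overlap. The rise was 11.25-fold in KO cells (log2 fold change 3.49, SE 0.12, adjusted p = 5.8e-09) and 8.28-fold in WT cells (3.05, SE 0.12, adjusted p = 1.39e-08).

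Slc11a1 encodes NRAMP1, a related transporter of the phagosome membrane known for its part in resistance to intracellular pathogens. KO libraries had 233, 215 and 231 CPM under LPS, against 159.9, 133 and 149 CPM in medium. WT libraries had 248, 238 and 243 CPM under LPS, against 191, 174 and 185 CPM in medium. Each line showed a small, clear shift with no overlap, with a rise of 0.62 on the log2 scale in KO cells (SE 0.079, adjusted p = 0.000135) and of 0.41 in WT cells (SE 0.079, adjusted p = 0.00252). The rise in WT cells, at 0.07, lost its call (adjusted p = 0.391) when libraries were scaled by their size alone, a scaling under which the median of all genes was -0.40.

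Slc39a14 encodes ZIP14, a transporter of zinc, manganese and iron not bound to transferrin. It had 109, 137 and 89.98 CPM in KO libraries under LPS, against 40.9, 55.9 and 45.2 CPM in KO libraries in medium. In WT libraries it had 175, 164 and 151 CPM under LPS, against 47.2, 48.1 and 52.4 CPM in medium. All libraries under LPS were above all libraries in medium, and those of WT cells reached the highest levels. The rise was 1.24 on the log2 scale in KO cells (SE 0.15, adjusted p = 8.36e-05) and 1.73 in WT cells (SE 0.15, adjusted p = 6.68e-06).

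Tfrc encodes the transferrin receptor, the main entry of iron from serum. It had 223, 398 and 209 CPM in KO libraries under LPS, against 112, 191 and 112 CPM in KO libraries in medium. In WT libraries it had 296, 272 and 255 CPM under LPS, against 164, 148 and 144 CPM in medium. Replicate 2 of the KO line was the highest library of its group in both conditions, and the groups under LPS did not overlap those in medium. Tfrc rose by 1.00 on the log2 scale in KO cells (SE 0.26, adjusted p = 0.00892) and by 0.85 in WT cells (SE 0.26, adjusted p = 0.0286). The call in WT cells was lost when any single WT library was left out: the adjusted p was 0.0852, 0.0621 and 0.0561 without WT replicate 1, 2 or 3 under LPS and 0.0681, 0.0975 and 0.0642 without WT replicate 1, 2 or 3 in medium, with log2 fold changes of 0.77 to 0.91. That call was also lost with library size alone (0.52, adjusted p = 0.147) and with no filter on low counts (0.76, adjusted p = 0.118). The share of pseudogene counts as a term took it too (0.81, adjusted p = 0.144).

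Slc40a1 encodes ferroportin, the known exporter of iron from mammalian cells. KO libraries had 98.9, 82.7 and 103.8 CPM under LPS, against 68.0, 43.7 and 66.6 CPM in medium. WT libraries had 94.9, 72.8 and 90.2 CPM under LPS, against 84.4, 58.9 and 64.7 CPM in medium. The groups were separate in KO cells and overlapped in WT cells. Slc40a1 rose by 0.68 on the log2 scale in KO cells (SE 0.19, adjusted p = 0.0114), and its change in WT cells was 0.31 (SE 0.19, 95% interval -0.12 to 0.74, adjusted p = 0.217). The difference between the lines in this response did not pass the test (0.37, adjusted p = 0.566).

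Cp encodes ceruloplasmin, a copper-containing ferroxidase. Its counts were low in medium, at 171, 86 and 117 in KO libraries and 265, 134 and 363 in WT libraries. It had 14.5, 13.4 and 13.2 CPM in KO libraries under LPS, against 3.32, 1.90 and 2.37 CPM in KO libraries in medium. In WT libraries it had 26.8, 30.4 and 17.3 CPM under LPS, against 5.58, 2.90 and 5.66 CPM in medium. The 4 groups did not overlap between conditions, and the rise was alike in size, 2.43 on the log2 scale in KO cells (SE 0.30, adjusted p = 0.000104) and 2.40 in WT cells (SE 0.29, adjusted p = 9.63e-05).

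Fth1 encodes the ferritin heavy chain, which oxidises iron for storage. It had 4730.1, 3697 and 4012 CPM in KO libraries under LPS, against 2352, 2034 and 1998 CPM in KO libraries in medium. In WT libraries it had 4683, 3746 and 4188 CPM under LPS, against 2059.7, 1780.3 and 1925 CPM in medium. Every library under LPS stood above every library in medium in both lines. Fth1 rose by 0.96 on the log2 scale in KO cells (SE 0.13, adjusted p = 0.000203) and by 1.13 in WT cells (SE 0.13, adjusted p = 5.66e-05).

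Ftl1 encodes the ferritin light chain, which helps form the iron core. It had 2028, 1432 and 1999.96 CPM in KO libraries under LPS, against 1674, 1243 and 1567 CPM in KO libraries in medium. In WT libraries it had 1909.6, 1424 and 1956 CPM under LPS, against 1942, 1277 and 1592 CPM in medium. Groups overlapped in both lines, with replicate 2 the lowest library of each group. The change was 0.28 on the log2 scale in KO cells (SE 0.20, 95% interval -0.17 to 0.74, adjusted p = 0.246) and 0.14 in WT cells (SE 0.20, 95% interval -0.32 to 0.59, adjusted p = 0.611).

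Lcn2 encodes lipocalin 2, a secreted protein that binds bacterial siderophores. It was near the floor of detection in medium, with 11, 7 and 12 counts in KO libraries and 7, 15 and 4 counts in WT libraries. Under LPS it had 304, 1065 and 176 counts in KO libraries and 2763, 1904 and 1984 counts in WT libraries. As CPM these were 6.61, 19.6 and 4.15 in KO libraries under LPS, against 0.214, 0.155 and 0.243 in KO libraries in medium. The WT libraries had 47.7, 47.5 and 31.4 CPM under LPS, against 0.147, 0.324 and 0.0623 CPM in medium. Every library under LPS was far above every library in medium, and within the KO group under LPS replicate 2 was the highest. The rise was 48.9-fold in KO cells (log2 fold change 5.61, SE 0.69, adjusted p = 0.000154) and 246-fold in WT cells (7.94, SE 0.74, adjusted p = 1.96e-05). Leaving out 1 library at a time gave log2 fold changes of 4.70 to 5.99 in KO cells and 7.44 to 8.63 in WT cells.

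The Lcn2 promoter is shown because this gene had the largest response to LPS of the 9. The 250 bases before the start of transcription were taken from RefSeq on GRCm38.p6, on the strand of the gene, and a promoter was found there for 6 of the 9 genes (Slc11a1, Lcn2, Cp, Ftl1, Tfrc and Fth1). Windows of that length were searched on both strands for the NF-κB consensus, the C/EBP letters TTGCNNAA, the antioxidant response letters TGACNNNGC and the interferon-stimulated response element, which 7.25%, 9.56%, 10.2% and 2.98% of 32851 promoters hold. The C/EBP letters were found in promoters of Lcn2, Cp and Fth1, and the NF-κB consensus in that of Ftl1. Cp, Fth1 and Tfrc have alternative promoters there, and for Cp and Fth1 not all of them held the letters. The percentages are shares of promoters, not of genes. Such matches are a description of the letters and not evidence of binding. In the sequence the C/EBP match, from base -216 to base -209 before the start, is in capitals.
Lcn2 promoter, chr2:32387740-32387989, minus strand: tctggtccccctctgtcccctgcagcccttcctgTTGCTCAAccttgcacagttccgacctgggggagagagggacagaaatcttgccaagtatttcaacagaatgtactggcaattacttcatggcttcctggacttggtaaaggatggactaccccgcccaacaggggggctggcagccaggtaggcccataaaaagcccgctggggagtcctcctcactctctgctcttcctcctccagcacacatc

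**Figure D2:**
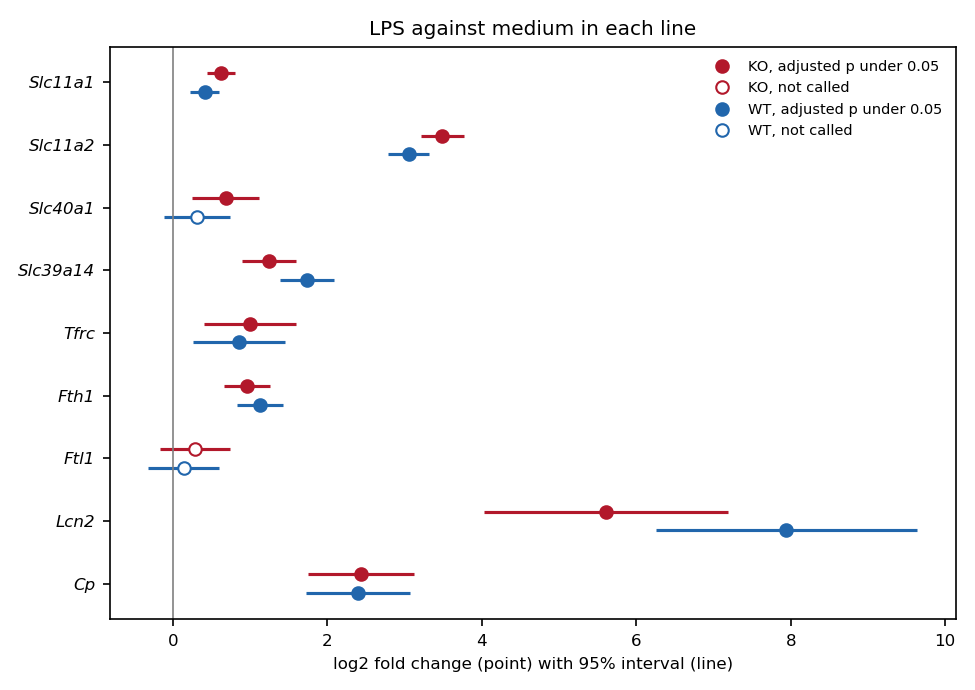
Log2 fold change of LPS against medium for each of the 9 genes (horizontal axis) in KO cells and in WT cells; points are edgeR estimates and lines 95% intervals from the SE with 8 residual degrees of freedom. Lcn2, Slc11a2 and Cp lay farthest to the right in both lines, and the intervals of Ftl1 in both lines and of Slc40a1 in WT cells reached below 0.

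Between the lines the 9 genes differed far less than between conditions. In medium 1 of 9 was lower in KO than in WT cells, Slc11a1, where 19.2% of all genes tested differed, 12.3% being lower, and none was higher, where 6.88% of all genes were. Under LPS 2 of 9 were lower in KO cells, Lcn2 and Slc39a14, where 20.6% of all genes differed, 12.7% being lower, and none was higher, where 7.87% of all genes were. Counts this small among 9 genes lie near the shares over all genes. Levels of some cell type markers also differed between the lines, and their part in the results was not tested. The 6 oligodendrocyte lineage markers summed to 14.1 to 17.2 CPM in KO libraries and 8.28 to 8.86 CPM in WT libraries under LPS, and to 22.3 to 24.4 CPM in KO libraries and 11.05 to 12.3 CPM in WT libraries in medium, most of it from Mbp. The microglial marker Itgam had means of 2.95 ± 0.41 CPM in KO cells and 24.2 ± 2.97 CPM in WT cells under LPS (log2 fold change -3.04, adjusted p = 2.4e-07) and 3.67 ± 0.37 CPM in KO cells and 20.9 ± 3.46 CPM in WT cells in medium (-2.51, adjusted p = 1.22e-06; SD, n = 3 each). Other microglial markers did not all follow Itgam. In medium Trem2 had means of 75.7 CPM in KO cells and 77.0 CPM in WT cells, and Ptprc of 188 and 187 CPM. Spi1 was lower in KO cells there (67.6 and 120 CPM), as was Cx3cr1 (2.77 and 4.86 CPM), and Tmem119 was higher (5.97 and 3.86 CPM). Csf1r had 126 to 167 CPM in KO libraries and 217 to 269 CPM in WT libraries in medium. Under LPS it had 118 to 130 CPM in KO libraries and 175 to 188 CPM in WT libraries. Ptprc had means of 264 CPM in KO cells and 312 CPM in WT cells under LPS, and Trem2 of 35.4 and 37.6 CPM. The median log2 fold change of KO against WT over the 9 genes was -0.12 in medium and -0.02 under LPS, beside 0.04 and 0.07 over all genes tested. The libraries of the lines did not overlap for 1 of 9 genes in medium, where this held for 35.6% of all genes, and for 5 of 9 under LPS, where it held for 38.9%.

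Slc11a1 was 0.32 lower on the log2 scale in KO than in WT cells in medium (log2 fold change -0.32, SE 0.079, adjusted p = 0.0167), with means of 147 ± 14 CPM in KO cells and 183 ± 8.5 CPM in WT cells (SD, n = 3 each). Every KO library was below every WT library. The call held without each single library and was lost in a fit of the compared groups alone (-0.34, adjusted p = 0.0684) and in a fit with the share of pseudogene counts as a term (-0.27, adjusted p = 0.229). Under LPS the difference was -0.10 (95% interval -0.29 to 0.08, adjusted p = 0.45), although no KO library reached the lowest WT library there either.

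Lcn2 was lower in KO than in WT cells under LPS, 4.16-fold on average (log2 -2.06, SE 0.52, adjusted p = 0.0173). Means were 10.1 ± 8.3 CPM in KO cells and 42.2 ± 9.35 CPM in WT cells (SD, n = 3 each), and the highest KO library, at 19.6 CPM, was below the lowest WT library, at 31.4 CPM. Without KO replicate 2 under LPS, the library that stood apart from its group, the difference was -2.97 (adjusted p = 0.000708). The call was lost without KO replicate 1 (-1.83, adjusted p = 0.0761), WT replicate 1 (-1.96, adjusted p = 0.0577) or WT replicate 2 (-1.97, adjusted p = 0.0515) under LPS, and also in a fit of the compared groups alone (-2.07, adjusted p = 0.0624) and with no filter on low counts (-2.10, adjusted p = 0.0609). In medium, where both lines had few counts, the difference of 0.27 had a 95% interval of -1.70 to 2.25 and was not detectable at this depth.

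Slc39a14 was also lower in KO than in WT cells under LPS (log2 fold change -0.54, SE 0.15, adjusted p = 0.0217), with means of 112 ± 24 CPM in KO cells and 163 ± 12 CPM in WT cells (SD, n = 3 each). The KO libraries, at 89.98 to 137 CPM, did not reach the lowest WT library, at 151 CPM. The call was lost without KO replicate 1 (adjusted p = 0.0684), KO replicate 3 (adjusted p = 0.0802), WT replicate 1 (adjusted p = 0.0793) or WT replicate 2 (adjusted p = 0.0572) under LPS, with log2 fold changes of -0.41 to -0.54, and with scaling by library size alone (-0.47, adjusted p = 0.0642). In medium the difference was -0.06 (95% interval -0.40 to 0.28, adjusted p = 0.796).

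Cp was lower in every KO library than in every WT library under LPS, with means of 13.7 ± 0.68 CPM in KO cells and 24.9 ± 6.8 CPM in WT cells (SD, n = 3 each). In medium the means were 2.53 ± 0.73 CPM in KO cells and 4.71 ± 1.6 CPM in WT cells (SD, n = 3 each), and WT replicate 2, at 2.90 CPM, lay within the KO range. The log2 fold changes of -0.86 under LPS (SE 0.28, adjusted p = 0.051) and -0.90 in medium (SE 0.29, adjusted p = 0.052) were next to the threshold without passing it. Without WT replicate 2 in medium, the library with the highest pseudogene share of its group, the difference was -1.17 in medium (adjusted p = 0.00378) and -0.87 under LPS (adjusted p = 0.0131). DESeq2 called both, at -0.93 in medium (adjusted p = 0.0156) and -0.87 under LPS (adjusted p = 0.0207). So did edgeR with protein-coding genes only (adjusted p = 0.0378 in medium and 0.0209 under LPS). A count minimum of 50 did the same (adjusted p = 0.0486 in medium and 0.0476 under LPS). With only the groups compared, Cp passed under LPS (-0.88, adjusted p = 0.00987) but not in medium. In medium Cp also passed without KO replicate 1 in medium (-1.16, adjusted p = 0.0376) or WT replicate 3 under LPS (-0.90, adjusted p = 0.0429), and under LPS it passed without KO replicate 1 or 2 in medium (adjusted p = 0.0451 and 0.0492), WT replicate 3 under LPS (0.0266) or WT replicate 3 in medium (0.0398).

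Slc11a2 was the 1 gene of the 9 whose KO libraries all lay above the WT libraries under LPS, but the lowest KO library, at 343.92 CPM, and the highest WT library, at 343.89 CPM, were next to equal. The log2 fold change of 0.32 (SE 0.11, 95% interval 0.07 to 0.58) did not pass the test (adjusted p = 0.0575). It passed without KO replicate 2 under LPS (0.44, adjusted p = 0.00685), the lowest KO library, and without WT replicate 2 in medium (0.31, adjusted p = 0.0336). With all libraries it passed at a count minimum of 50 (0.36, adjusted p = 0.0178) and with library size alone (0.40, adjusted p = 0.011). It also passed with protein-coding genes only (0.29, adjusted p = 0.0334), but not in DESeq2 (0.31, adjusted p = 0.0816). In medium the difference was -0.12 (95% interval -0.37 to 0.14, adjusted p = 0.457).

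The remaining genes had line differences near 0. Tfrc gave -0.13 in medium (95% interval -0.72 to 0.46, adjusted p = 0.725) and 0.01 under LPS (95% interval -0.58 to 0.60, adjusted p = 0.989). With replicate 2 of the KO line left out in both conditions, a choice made after seeing the data, Tfrc was lower in KO than in WT cells in medium (-0.44, adjusted p = 0.00645) and under LPS (-0.35, adjusted p = 0.0168), so its value between the lines rested on those libraries. Slc40a1 gave -0.22 in medium (95% interval -0.65 to 0.21, adjusted p = 0.402) and 0.15 under LPS (95% interval -0.28 to 0.57, adjusted p = 0.699). For Fth1 the values were 0.15 in medium (95% interval -0.15 to 0.45, adjusted p = 0.423) and -0.02 under LPS (95% interval -0.32 to 0.28, adjusted p = 0.952). For Ftl1 they were -0.10 in medium (95% interval -0.55 to 0.35, adjusted p = 0.727) and 0.05 under LPS (95% interval -0.41 to 0.50, adjusted p = 0.929).

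**Figure D3:**
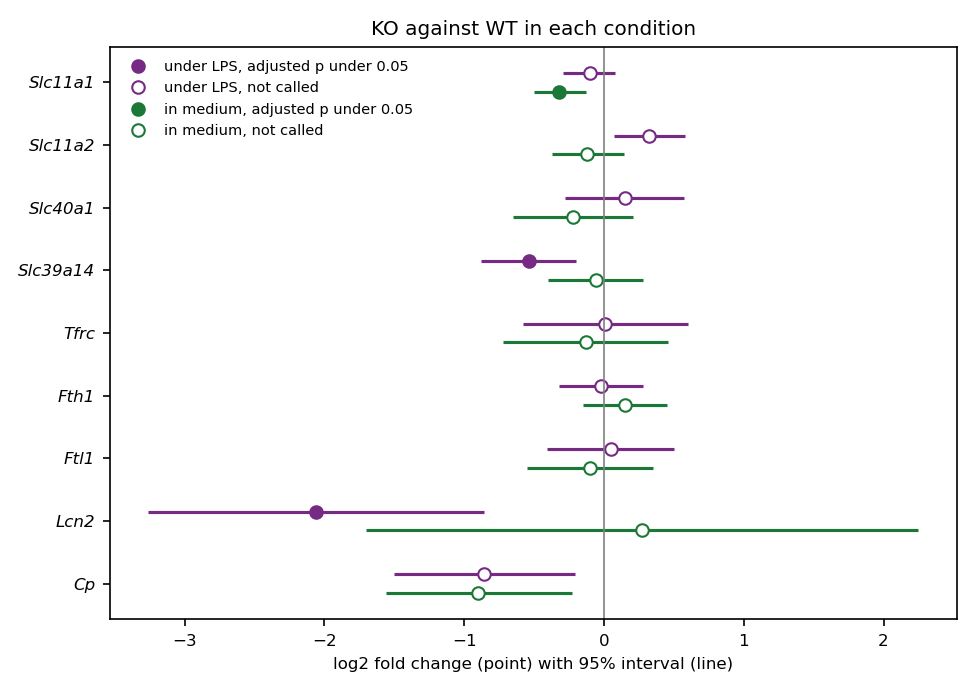
Log2 fold change of KO against WT for each of the 9 genes (horizontal axis) under LPS and in medium; points are edgeR estimates and lines 95% intervals from the SE with 8 residual degrees of freedom. Lcn2 under LPS lay farthest to the left at -2.06, Cp lay left of 0 in both conditions, and most other points were within 0.6 of 0.

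Whether the lines answered LPS to a different degree was tested as the interaction, the LPS effect in KO cells minus that in WT cells. None of the 9 genes passed the edgeR test, where 1.6% of all genes did, and none passed DESeq2, while 3 of 9 had an unadjusted p under 0.05 in edgeR (Slc11a2, Slc39a14 and Lcn2). For Lcn2 the interaction was -2.33 (SE 1.0, 95% interval -4.65 to -0.01, adjusted p = 0.343), and without KO replicate 2 under LPS it was -3.24 (adjusted p = 0.0401). For Slc11a2 it was 0.44 (SE 0.16, 95% interval 0.08 to 0.80, adjusted p = 0.234), and without WT replicate 2 in medium it was 0.53 (adjusted p = 0.0322). Slc39a14 gave -0.49 (95% interval -0.97 to 0.00, adjusted p = 0.334). The other 6 genes gave values between -0.17 for Fth1 and 0.37 for Slc40a1, and the median over the 9 was 0.14, beside -0.02 over all genes.

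Ferritin reads can be shared with copies of the ferritin genes, so the share of the 31-base words of each gene that also occur in transcripts of other genes was counted. This share was 57.7% for Ftl1 and 3.24% for Fth1, and for the other genes 2.32% (Slc11a1), 0.668% (Slc11a2), 0.622% (Slc39a14), 0.132% (Slc40a1), 0.0621% (Cp) and 0 (Tfrc and Lcn2). Ftl1 shared words with 30 genes. Of these, 12 were microRNA genes, 10 of them without a row in the count table, and were left out of the sums that follow. The other 18, called its relatives here, were 17 genes annotated as processed pseudogenes and Ftl1-ps1, annotated as protein-coding despite its name, which holds 54.43% of the Ftl1 words. Fth1 had 3, Gm6977, Fth-ps2 and Fth-ps3. To show how close the copies are, the stretch below, 167 bases of Ftl1 coding sequence spliced from the interval given (GENCODE M21, GRCm38), is identical in Ftl1-ps1, Gm15590 and Ftl2-ps, so a read from within it cannot be placed by its sequence.
Ftl1 shared coding stretch, chr7:45458616-45459205, minus strand: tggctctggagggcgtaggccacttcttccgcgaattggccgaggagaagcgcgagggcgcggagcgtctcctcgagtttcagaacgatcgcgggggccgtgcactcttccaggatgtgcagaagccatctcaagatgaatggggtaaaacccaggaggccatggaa

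Counts assigned to the relatives were large for Ftl1 and moved with condition. The relatives held 56.0% to 56.8% of the summed counts of Ftl1 and its relatives in KO libraries under LPS and 70.7% to 75.9% in KO libraries in medium. In WT libraries they held 54.5% to 57.0% under LPS and 62.2%, 75.1% and 57.0% in replicates 1, 2 and 3 in medium. KO libraries in medium and WT replicate 2 in medium were thus the high ones, the same libraries that held the most processed pseudogene counts. For Fth1 the relatives held 0.676% to 1.01% in KO libraries under LPS, 6.03% to 8.19% in KO libraries in medium, 0.798% to 1.08% in WT libraries under LPS and 3.07%, 7.76% and 1.05% in replicates 1, 2 and 3 of WT in medium.

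In KO cells, 15 of the 16 Ftl1 relatives that passed the filter were lower under LPS than in medium, as were 3 of 3 Fth1 relatives, where 26.8% of all genes tested fell. In WT cells 6 of 16 and 0 of 3 were lower, where 16.3% of all genes fell. Relatives of the same parent can share reads, so they are not separate observations. The share of all processed pseudogenes was also lower under LPS in KO cells, at 6.64% to 7.35% of counts, against 12.8% to 14.3% in medium. Whether the relatives fell more than that class was not tested. The Ftl1 relatives with the most counts, Ftl1-ps1, Gm15590 and Ftl2-ps, fell in KO cells by 0.61, 0.71 and 0.67 on the log2 scale (adjusted p = 0.0248, 0.0197 and 0.026). In WT cells they gave -0.26, -0.39 and -0.38 (adjusted p = 0.323, 0.197 and 0.205). Gm6977, the Fth1 relative with the most counts, fell by 2.14 in KO cells (adjusted p = 0.00929) and gave -0.95 in WT cells (adjusted p = 0.194).

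When the counts of the 18 relatives of Ftl1 and the 3 of Fth1 were added to their parent, a sum chosen after seeing the data, the LPS effect on Ftl1 took the opposite sign, at -0.45 in KO cells (adjusted p = 0.0763) and -0.21 in WT cells (adjusted p = 0.423), without passing the test. With the 17 processed pseudogenes alone added it was -0.41 in KO cells (adjusted p = 0.1) and -0.20 in WT cells (adjusted p = 0.448). The direction of the Ftl1 estimate thus changed with the assignment of counts. The rise of Fth1 under LPS did not lose its call in either sum.

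**Figure D4:**
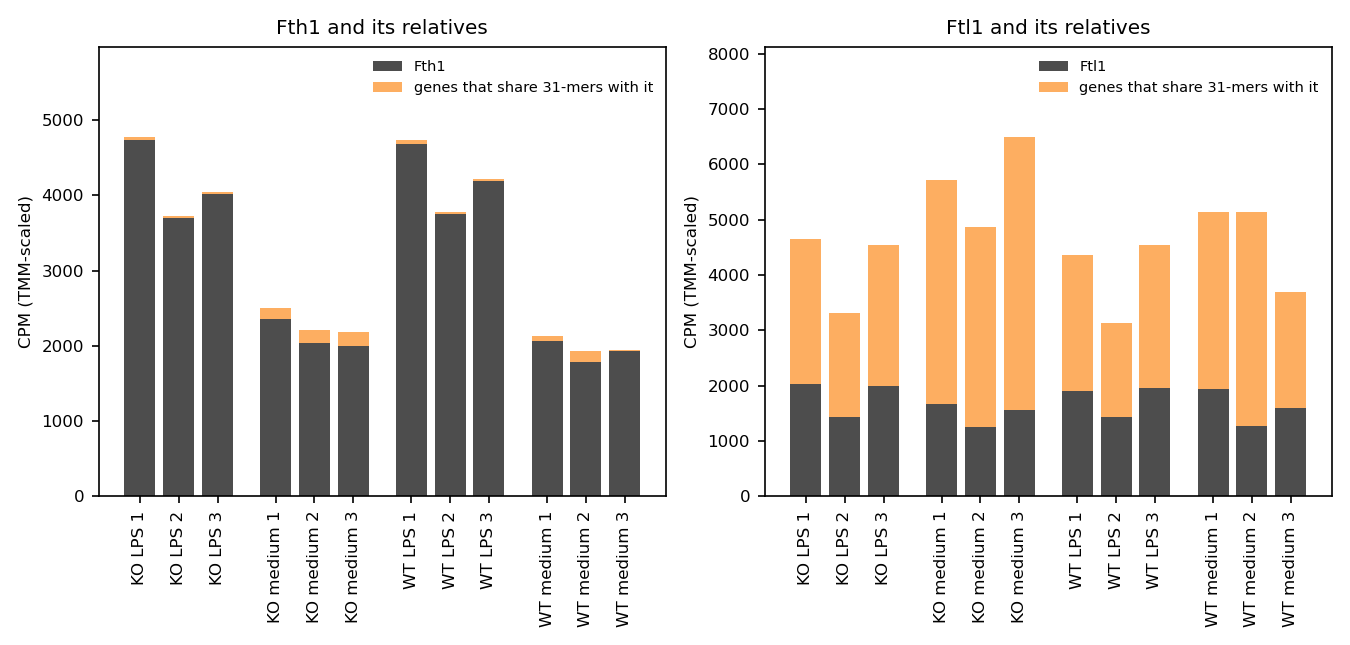
CPM of Fth1 (left) and Ftl1 (right) in each library (dark bars, from 0), with the summed CPM of its relatives, 3 for Fth1 and 18 for Ftl1, stacked on top (orange). The orange part is a thin cap for Fth1 and more than the dark part for Ftl1, and it was highest in KO libraries in medium and in WT replicate 2 in medium.

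Some genes followed the pattern of a member closely over the 12 libraries, as log2 CPM among 9665 protein-coding genes, a description in which all points share the 4 groups and the scaling. Nearest to Slc11a2 were Pim1, Rab11fip1 and Grap (r = 0.999, 0.999 and 0.998), and nearest to Lcn2 were Il6, Hbegf and Filip1l (r = 0.989, 0.985 and 0.982). Nearest to Slc11a1 was Rbpj (r = 0.995), to Slc39a14 Krit1 (0.989), to Tfrc Noc4l (0.991), to Fth1 Uba6 (0.991), to Cp Suco (0.984) and to Slc40a1 Ppp1r2 (0.963). Ftl1 had the least close neighbour, Cotl1 at r = 0.951. Among the 9 genes themselves the closest pair was Slc39a14 and Lcn2 (r = 0.98), followed by Slc11a2 and Fth1 (r = 0.97). Tfrc and Ftl1 were the least alike (r = 0.10).

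A wider list of 51 genes of iron and haem handling, 45 of which passed the filter, was set beside the 9 genes. Under LPS 14 rose and 6 fell in KO cells, where 25.3% of all genes tested rose and 26.8% fell. In WT cells 8 rose and 5 fell, where 16.3% of all genes rose and 16.3% fell. These splits depended on the scaling: with library size alone, 10 were higher and 16 lower under LPS in KO cells, and 4 were higher and 19 lower in WT cells. Between the lines 6 were higher and 8 lower in KO than in WT cells in medium, where 6.88% of all genes were higher and 12.3% lower. Under LPS 8 were higher and 8 lower, where 7.87% of all genes were higher and 12.7% lower, and with library size alone 10 were higher and 6 lower. Without KO replicate 3 under LPS the list had 10 calls there in all. The list's median log2 fold change was 0.06 for LPS in KO cells and 0.03 in WT cells, and -0.03 in medium and 0.09 under LPS for KO against WT. No test of the list against other genes was made.

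Trf, Hmox1, Blvra and Blvrb were lower in the KO line in both conditions, and Abcg2 was higher. Trf, which encodes transferrin, the ligand of the transferrin receptor, had 18.3, 14.9 and 13.6 CPM in KO libraries under LPS, against 102, 68.6 and 74.9 CPM in WT libraries under LPS. It had 18.8, 13.2 and 14.3 CPM in KO libraries in medium, against 94.98, 61.3 and 60.7 CPM in WT libraries in medium. The KO libraries formed a tight low group in both conditions, 5.24-fold lower under LPS (log2 fold change -2.39, SE 0.23, adjusted p = 2.22e-05) and 4.68-fold lower in medium (-2.23, SE 0.22, adjusted p = 5.46e-05). Hmox1, the inducible haem oxygenase, was at 274 ± 21 CPM in KO cells and 473 ± 65 CPM in WT cells under LPS (-0.79, adjusted p = 0.000459), and at 151 ± 13 CPM in KO cells and 297.5 ± 25 CPM in WT cells in medium (-0.98, adjusted p = 0.000134; SD, n = 3 each). The biliverdin reductases, which act after it, were lower in KO cells too, Blvrb with a log2 fold change of -1.58 under LPS and -1.58 in medium (adjusted p = 5.24e-06 and 8.04e-06) and Blvra with -1.13 under LPS and -0.95 in medium (adjusted p = 6.89e-06 and 3.94e-05). Abcg2, an exporter of porphyrins and haem, was higher in KO cells, by 1.67 under LPS and 1.73 in medium (adjusted p = 6.77e-05 and 7.42e-05). These line differences in Trf, Hmox1, Blvrb, Blvra and Abcg2 held when each library was left out.

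LPS changed members of each of the 5 parts of the wider list. Nfe2l2, which encodes the transcription factor NRF2, rose by 1.55 in KO cells (adjusted p = 1.94e-05) and 1.01 in WT cells (adjusted p = 0.000435) on the log2 scale. Hmox1 rose by 0.86 in KO cells and 0.67 in WT cells (adjusted p = 0.000182 and 0.00104), and Blvrb by 0.78 in KO cells and 0.77 in WT cells (adjusted p = 0.000739 and 0.000675). Slc46a1, a carrier of folate and haem, fell by 0.68 in KO cells and 1.17 in WT cells (adjusted p = 0.00453 and 0.000187). Hfe, which binds the transferrin receptor, fell by 1.04 in KO cells and 0.68 in WT cells (adjusted p = 0.000598 and 0.00969), and Steap3, an endosomal reductase of ferric iron, fell by 0.52 in each (adjusted p = 0.0024 and 0.00305). Ireb2, which encodes an iron regulatory protein that binds the hairpins shown above, rose by 0.49 in KO cells and 0.43 in WT cells (adjusted p = 0.00124 and 0.00293). With library size alone its rise in WT cells was 0.09 and lost its call (adjusted p = 0.277). In mitochondria, Alas1, the first enzyme of haem synthesis, rose by 0.55 in KO cells and 0.86 in WT cells (adjusted p = 0.000277 and 8.14e-06).

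Smaller line differences lay in the control of iron and in mitochondria. Hfe was higher in KO than in WT cells in medium (0.69, adjusted p = 0.0123). Ireb2 was lower in KO cells, with a log2 fold change of -0.30 under LPS and -0.36 in medium (adjusted p = 0.0263 and 0.0127). The Ireb2 call under LPS held in 8 of 12 fits that left out a library. Alas1 was lower in KO cells, with a log2 fold change of -0.65 under LPS and -0.34 in medium (adjusted p = 9.99e-05 and 0.0102). Fech, which inserts iron into haem, was higher in KO cells by 0.44 under LPS and 0.54 in medium (adjusted p = 0.0118 and 0.00447), and its call under LPS was lost without KO replicate 3 (adjusted p = 0.0561) or WT replicate 2 (adjusted p = 0.0577) under LPS. Pcbp1, a chaperone that delivers iron to ferritin, rose under LPS by 0.48 in KO cells and 0.48 in WT cells (adjusted p = 0.00216 and 0.00251). With library size alone its rise in WT cells was 0.14 and lost its call (adjusted p = 0.163). Pcbp1 was higher in KO than in WT cells, by 0.34 under LPS and 0.34 in medium (adjusted p = 0.0228 and 0.0262). These calls held in 8 and 11 of 12 fits that left out a library. With only the groups compared, the calls of Hfe, Ireb2 and Pcbp1 in medium were lost (adjusted p = 0.0573, 0.0516 and 0.0689). Ncoa4, the receptor that takes ferritin to lysosomes, fell by 0.67 in WT cells under LPS (adjusted p = 0.0112). In KO cells Ncoa4 fell by 0.48 (adjusted p = 0.0311) with overlapping libraries, a call lost without KO replicate 1 or 2 under LPS or KO replicate 1 or 3 in medium (adjusted p = 0.0707, 0.103, 0.0706 and 0.0789).

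**Figure D5:**
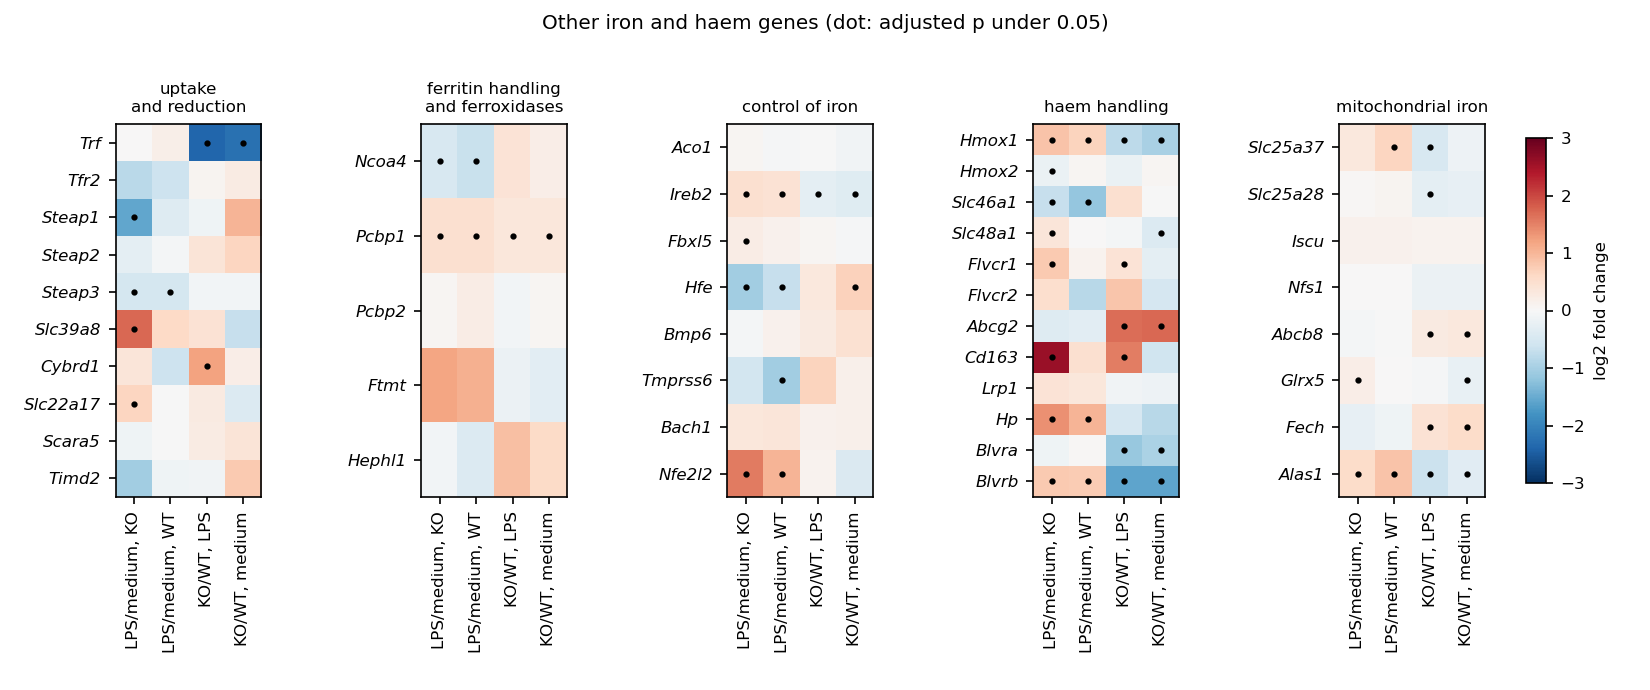
Log2 fold change (colour, red higher and blue lower) of 43 tested genes of the wider list, in 5 panels by role; columns are LPS against medium in KO and in WT cells and KO against WT under LPS and in medium, and a dot marks an adjusted p under 0.05. The darkest blue line effect is Trf, at -2.39 under LPS and -2.23 in medium.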

How the data were processed

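RNA was sequenced from 12 SIM-A9 libraries with a stranded total RNA kit with ribosomal depletion, per the labels' protocols. The deposited file holds raw counts of reads per Ensembl gene, whole numbers that were not normalised. The authors used FastQC 0.11.9, Trimmomatic 0.39, STAR 2.7.9a, featureCounts and DESeq2 1.32.0 with GRCm39, per the submitters' processing notes. For these steps the sources used here name no annotation release, no strand setting and no rule for multi-mapping reads, so reads of overlapping or antisense genes and of near copies may be shared.

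Symbols came from the GENCODE M21 reference (GRCm38), which matched 52135 of 55416 identifiers. Identifiers without a symbol held 6.47% of counts (4.86% to 10.4% per library) and stayed in the totals and tests. Coordinates and sequences are those of GRCm38, or GRCm38.p6 for the RefSeq promoter, not of the build used for counting.

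The test was run in edgeR 4.0.16 under R 4.3.3: filterByExpr by group (count minimum 10, 26420 genes kept), TMM scaling, and a robust quasi-likelihood fit of 4 group means over all 12 libraries with no replicate block (biological coefficient of variation 0.235). The 5 comparisons were LPS against medium in each line, KO against WT in each condition, and the interaction. A call is a Benjamini-Hochberg adjusted p under 0.05 over all genes tested. Intervals of 95% use the SE with 8 residual degrees of freedom. CPM are counts per M counts of the TMM-scaled library, and per-kb levels divide by the summed exon length. Correlations used log2 CPM with a prior count of 2. The fit was tested on simulated counts.

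Members and lists were chosen with earlier results of these data known. Genes of the wider list named are, per part of that list and comparison, up to 4 called genes with the largest change at a mean log2 CPM of at least 2; some of them are shown only in the plot. The most abundant gene of a part was Trf, Pcbp2, Nfe2l2 or Lrp1 in 4 of the 5 parts. Some genes of the wider list are counted but not reported here. Alternatives were scaling by RLE or by library size alone, no filter, a count minimum of 50, DESeq2 1.42.0, no robust estimation, the replicate block, only the groups compared, protein-coding genes only, a covariate (the log2 share of processed pseudogene counts), pseudogene counts added to the ferritins, and each library left out. Adding the counts of all relatives named as such, and leaving out KO replicate 2 in both conditions, were chosen after seeing the data. Markers of astrocytes, neurons and endothelium were also summed: astrocytes gave 2.92 to 5.06 CPM per library, neurons 5.21 to 9.29 CPM and endothelium 90.0 to 130 CPM, with 1 of 4 endothelial markers at 1 CPM or more.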

Additional observations from a re-analysis of the deposited data

Results flagged for a closer look

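Flvcr1, which encodes an exporter of haem, responded to LPS in KO cells more than in WT cells, and the difference between the lines itself passed the test. It had 39.5, 46.9 and 38.8 CPM in KO libraries under LPS, against 23.3, 27.3 and 22.1 CPM in KO libraries in medium. In WT libraries it had 31.7, 30.97 and 32.1 CPM under LPS, against 31.5, 28.4 and 28.7 CPM in medium. The LPS effect was 0.79 on the log2 scale in KO cells (SE 0.099, adjusted p = 0.000118) and 0.10 in WT cells (SE 0.099, adjusted p = 0.467), and the interaction was 0.69 (SE 0.14, edgeR adjusted p = 0.0338). It was the 1 gene called in the interaction among the 9 genes and the 45 tested genes of the wider list. Over all genes tested 1.6% were called in the interaction, so 1 call lies near that share. The call was lost in 9 of 12 fits that left out a library, with log2 values of 0.60 to 0.79 over all 12. The adjusted p was 0.06 and 0.058 without KO replicate 1 or 3 under LPS, 0.074 and 0.0855 without KO replicate 1 or 3 in medium, 0.0985, 0.0938 and 0.0774 without WT replicate 1, 2 or 3 under LPS, and 0.0788 and 0.0566 without WT replicate 1 or 3 in medium. With the processed pseudogene share as a covariate it was 0.66 (adjusted p = 0.13).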

How the results depend on the processing

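The LPS calls of Slc11a2, Slc39a14 and Fth1 in both lines and of Lcn2 and Cp in WT cells held in every fit run, and those of the other genes in KO cells in every fit but the one with the processed pseudogene share as a covariate. That covariate left 3 of 8 members called for LPS in KO cells: it took the calls of Slc11a1 (0.54, adjusted p = 0.0712), Slc40a1 (0.60, 0.446), Tfrc (0.92, 0.423), Lcn2 (6.01, 0.168) and Cp (1.45, 0.0577). The share separates KO in medium from KO under LPS, so it and LPS cannot be told apart there. With it 3 genes of the wider list were called for LPS in KO cells, 8 for KO against WT in medium and 0 in the interaction, and members called for KO against WT were 0 in medium and 4 under LPS. Its estimates changed sign for Slc39a14 (0.01) and Ftl1 (0.02) in medium between the lines and for the Cp interaction (-0.53). Cp and Slc11a2 between the lines under LPS passed with it (adjusted p = 0.0152 and 0.0475).

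Counts of members called for KO against WT also moved. In medium 2 were called with library size alone, a count minimum of 50, DESeq2, protein-coding genes only, or KO replicate 2 left out in both conditions, and 0 with only the groups compared, where 9 of the wider list were called. Under LPS 1 was called with no filter and 4 with a count minimum of 50, protein-coding genes only, or KO replicate 2 left out in both conditions. In the interaction the wider list had 2 calls with protein-coding genes only. Over the 12 fits that left out a library, members called ranged from 1 to 2 (KO against WT in medium), 0 to 4 (under LPS) and 0 to 1 (interaction), and calls of the wider list from 10 to 16 (KO against WT under LPS) and 0 to 3 (interaction).

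Scaling by library size alone put the median over all genes at -0.29 for LPS in KO cells, -0.40 for LPS in WT cells and 0.14 for KO against WT under LPS. Genes called higher and lower were then 4182 and 10422 for LPS in KO cells (6679 and 7070 with TMM), 2104 and 9985 for LPS in WT cells (4303 and 4297), 2922 and 2936 for KO against WT under LPS (2080 and 3351), and 360 and 236 in the interaction (183 and 240), and 23 of the wider list were called for LPS in WT cells. Fbxl5 (-0.03) and Glrx5 (-0.07) for LPS in KO cells, Slc40a1 (-0.03) and Ftl1 (-0.20) for LPS in WT cells, and Fth1 (0.05) for KO against WT under LPS changed sign, and the 4 LPS values lay above those medians.

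Estimates near 0 changed sign in other fits. For Tfrc between the lines under LPS these were RLE (0.00), DESeq2 (0.00), no filter (-0.03), only the groups compared (-0.01), protein-coding genes only (-0.02), and KO replicate 2 left out (-0.35), the last a call. For Fth1 under LPS they were a count minimum of 50 (0.02) and KO replicate 2 left out (0.06), for Ftl1 in medium KO replicate 2 left out (0.02), and for the Cp interaction protein-coding genes only (-0.02) and KO replicate 2 left out (-0.11). With processed pseudogenes or all 18 relatives added, Ftl1 gave -0.41 and -0.45 (LPS, KO), -0.20 and -0.21 (LPS, WT), 0.27 and 0.29 (KO against WT in medium) and -0.21 and -0.24 (interaction). Leaving out single libraries gave Cp -0.17 to 0.30 and Tfrc -0.21 to 0.45 in the interaction, Ftl1 -0.06 to 0.28 for LPS in WT cells, and between the lines Fth1 -0.13 to 0.06, Ftl1 -0.09 to 0.19 and Tfrc -0.35 to 0.17 under LPS and Ftl1 -0.26 to 0.01, Lcn2 -0.20 to 1.00 and Slc39a14 -0.21 to 0.01 in medium.

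All genes called, 13749 for LPS in KO cells, were 8285 with protein-coding genes only and 2001 with the covariate. For LPS in WT cells, 8600 became 5574 with the covariate and 5322 and 5695 without WT replicate 1 or 3 under LPS. For KO against WT in medium, 5074 became 3354 with only the groups compared, 2342 with the covariate and 11265 without WT replicate 2 in medium. In the interaction, 423 became 857 with DESeq2, 670 with protein-coding genes only, 661 with the block and 199 with the covariate, and 186 to 3997 without single libraries, the highest without WT replicate 2 in medium.

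Numbers were to be taken as pairs where the deviations of same-numbered samples correlated above 0.1 in all 3 pairs. The r values were 0.192, 0.335 and 0.045 for LPS in KO cells, 0.232, -0.168 and -0.08 for LPS in WT cells, 0.391, 0.291 and -0.366 between the lines in medium and 0.153, 0.209 and -0.041 under LPS. No comparison met this, so the numbers were not taken as pairs. The rule does not show that same-numbered samples are unrelated. With the replicate block, Ftl1 for LPS in KO cells (0.28, adjusted p = 0.0114), Slc40a1 for LPS in WT cells (0.31, 0.0348) and Slc11a2 for KO against WT under LPS (0.32, 0.0193) were called, Tfrc between the lines under LPS was -0.05, and the wider list had 2 calls in the interaction.

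Depth limits Lcn2 in medium, at 4 to 15 counts per library.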

Other observations

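Some scarce genes of the wider list, which the rule for named genes left out for their low level and which were chosen here after their values were seen, also changed under LPS, in KO cells Cd163, Hp, Slc39a8, Slc22a17 and Steap1 and in WT cells Hp and Tmprss6. Cd163, the haptoglobin-haemoglobin receptor of macrophages, had 0.869, 0.809 and 0.824 CPM in KO libraries under LPS, against 0.194, 0.133 and 0.0811 CPM in KO libraries in medium (log2 fold change 2.59, SE 0.42, edgeR adjusted p = 0.000764). In WT libraries Cd163 had 0.345, 0.399 and 0.142 CPM under LPS, against 0.274, 0.108 and 0.234 CPM in medium. Under LPS it was higher in KO than in WT cells by 1.53 (SE 0.38, adjusted p = 0.0137). Hp, which encodes haptoglobin, rose under LPS by 1.37 in KO cells (adjusted p = 0.00703) and by 1.03 in WT cells (adjusted p = 0.0346). Slc39a8, a transporter of zinc, manganese and iron related to Slc39a14, rose by 1.73 in KO cells (adjusted p = 0.0031), with 1.04, 1.324 and 0.919 CPM under LPS, against 0.408, 0.353 and 0.223 CPM in medium. In WT libraries Slc39a8 had 0.674, 0.898 and 0.855 CPM under LPS, against 0.548, 0.26 and 0.763 CPM in medium (0.60, adjusted p = 0.203), and the interaction was 1.13 (adjusted p = 0.352). Slc22a17, a receptor of lipocalin 2, rose by 0.65 in KO cells (adjusted p = 0.0268). Steap1, of the STEAP family of metalloreductases, fell by 1.57 in KO cells (adjusted p = 0.0348), at no more than 0.53 CPM in any library, and Tmprss6, a protease that restrains hepcidin signalling in hepatocytes, fell by 1.05 in WT cells (adjusted p = 0.0291). Hamp, the gene of the iron hormone hepcidin, stayed at or below 0.136 CPM in every library and was not tested.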
